A study of Mus musculus with 10 samples.

Results

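The transcripts of the T-cell receptor gamma (TCR gamma) locus described here are those of 7 genes of the Trg family: the constant genes Trgc1, Trgc2 and Trgc4, the joining segments Trgj1, Trgj2 and Trgj4, and the variable segment Trgv2. They were selected on their values in the libraries labelled cKO against those labelled WT, so their differences between the groups are given as a description with no test. The 7 genes were taken from a table of 55359 genes, in which the locus has 15 genes in all. RNA-seq libraries had been made from lineage-negative (Lin−) bone marrow cells, the fraction left once cells with surface markers of mature blood cells are depleted. There were 5 libraries labelled WT, from Dhx9f/f mice, and 5 labelled cKO, from mice of the genotype Dhx9f/f;MX1. The genotype label of the second group is Dhx9 knock down. Both groups carry Dhx9 alleles flanked by loxP sites, and only the cKO mice carry a Cre recombinase under the interferon-responsive Mx1 promoter, which is switched on by injection of the RNA mimic poly(I:C). Whether the sequenced WT mice received poly(I:C), and the age of the sequenced mice and the sex of each, are not given in the sources used here, so an effect of poly(I:C) and one of genotype cannot be told apart. Values are FPKM, the fragments of a gene scaled to its length and to the fragments of the library.

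The gamma chain pairs with the delta chain to form the receptor of gamma-delta T cells, and a gamma gene is assembled by the RAG recombinase from a variable (V) and a joining (J) segment that lie upstream of a constant (C) gene. Before and during this assembly the unrearranged J and C segments are themselves transcribed, from promoters near the J segments that are known to respond to the interleukin-7 receptor and the transcription factor STAT5. Transcripts of constant genes are also made in cells of other lineages, so their presence alone does not mark a gamma-delta T cell.

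On GRCm39 the 15 genes lie on chromosome 13 between 19362194 and 19536926, a stretch of 175 kb, in clusters that each hold V, J and C genes. The first cluster has Trgv7, Trgv4, Trgv6, Trgv5, Trgj1 and Trgc1, with 17.6 kb between Trgv5 and Trgj1 and 3.70 kb between Trgj1 and Trgc1. Trgv3, Trgj3 and Trgc3 form the next, Trgv2, Trgj2 and Trgc2 lie on the minus strand, and Trgv1, Trgj4 and Trgc4 end the locus. The J segments are shown here because the J and C genes of the first cluster moved apart from their near copies in the other clusters. Each is given on its coding strand with the 28 bases before it, and capitals mark the places of the nonamer (9 bases) and the heptamer (7 bases), the signals at which the RAG recombinase cuts, which stand 12 bases apart. The positions are chr13:19394485-19394572 for Trgj1 (plus strand), chr13:19495415-19495502 for Trgj2 (minus strand), chr13:19441259-19441346 for Trgj3 (plus strand) and chr13:19526294-19526382 for Trgj4 (plus strand).
Trgj1: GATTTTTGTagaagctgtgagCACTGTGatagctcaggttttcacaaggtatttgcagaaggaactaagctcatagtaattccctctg
Trgj2: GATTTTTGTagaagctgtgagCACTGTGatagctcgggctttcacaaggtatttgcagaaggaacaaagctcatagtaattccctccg
Trgj3: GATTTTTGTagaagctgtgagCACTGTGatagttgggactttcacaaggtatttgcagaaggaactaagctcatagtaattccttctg
Trgj4: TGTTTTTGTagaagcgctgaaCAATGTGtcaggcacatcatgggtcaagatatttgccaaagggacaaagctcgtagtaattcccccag
Trgj1, Trgj2 and Trgj3 had the same bases at both signals, and Trgj4 differed from them at both. The J segments of Trgj1 and Trgj2 were 93.3% identical over 60 bases and those of Trgj1 and Trgj3 90.0%, whereas Trgj1 and Trgj4 were 68.9% identical. The first constant exon, of 330 bases in all 4 constant genes, was 97.3% identical between Trgc1 and Trgc2, 96.1% between Trgc1 and Trgc3 and 82.1% between Trgc1 and Trgc4. The longest run of bases shared without a mismatch by the exons of Trgc1 and Trgc2 was 104, and for Trgc1 and Trgc3 it was 122. The paper gives paired-end reads longer than these runs, and their length after cleaning is not given in the sources used here. Fragments of Trgc1, Trgc2 and Trgc3, and of their J segments, could still have been assigned to the wrong copy or dropped. The split between these copies is uncertain.

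The stretch upstream of the J segments is shown because STAT proteins bind the palindrome TTCNNNGAA, which was searched for in the 500 bases before each J segment. Being a palindrome, it reads the same on both strands. Trgj1 had 3 matches, starting 442, 337 and 312 bases before the segment, and Trgj2, Trgj3 and Trgj4 had 1 each, at 302, 302 and 370 bases. The bases from 450 to 290 before each J segment are given on the strand of the segment, with the matches in capitals. They lie at chr13:19394063-19394223 for Trgj1, chr13:19495764-19495924 for Trgj2, chr13:19440837-19440997 for Trgj3 and chr13:19525872-19526032 for Trgj4.
Trgj1: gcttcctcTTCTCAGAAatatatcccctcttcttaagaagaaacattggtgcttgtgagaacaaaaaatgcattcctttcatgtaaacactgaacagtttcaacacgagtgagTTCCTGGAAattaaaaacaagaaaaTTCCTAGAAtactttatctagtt
Trgj2: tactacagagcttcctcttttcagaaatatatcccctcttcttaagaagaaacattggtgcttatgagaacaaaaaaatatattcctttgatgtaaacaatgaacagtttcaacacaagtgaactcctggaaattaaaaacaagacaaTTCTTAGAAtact
Trgj3: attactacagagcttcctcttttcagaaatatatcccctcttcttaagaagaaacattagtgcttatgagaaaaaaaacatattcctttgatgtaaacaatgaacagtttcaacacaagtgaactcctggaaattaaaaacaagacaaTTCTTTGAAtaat
Trgj4: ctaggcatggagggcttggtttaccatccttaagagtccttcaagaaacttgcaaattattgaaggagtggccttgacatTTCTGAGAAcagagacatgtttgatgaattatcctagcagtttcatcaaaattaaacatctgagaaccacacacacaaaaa
Of the windows of 500 bases before the 78280 annotated genes, 15.4% held at least 1 match and 78 (0.0996%) held 3 or more. Of the 66 J segments of the other T-cell receptor loci, 7 (10.6%) had a match in this window and 0 had 3. A match of these letters is a description of the sequence, and binding was not measured here.

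For genes that have only 1 transcript, low FPKM values are steps of whole fragments, and these steps gave the depth of each library. Depth was 13837000 to 17191750 fragments in the libraries labelled cKO and 15037550 to 18711150 in those labelled WT, which makes 1 fragment of Trgc1 worth 0.0578 to 0.0782 FPKM and 1 fragment of the 60 bases of Trgj1 worth 0.891 to 1.20 FPKM. A value of about 1 FPKM for a J segment is thus a single fragment. Dhx9, the targeted gene, was at 130.82, 148.8, 131.25, 156.49 and 131.98 FPKM across the libraries labelled cKO 1 to 5 and at 68.96, 72.42, 72.18, 69.55 and 65.43 FPKM in WT 1 to 5. It was higher in every library labelled cKO than in every WT library, against the labels (log2 fold change 1.0 by limma with adjusted p = 1.39e-05, and p = 0.00794 by a two-sided exact permutation test, the smallest possible with 5 against 5). A gene-level value does not show which exons were kept, and the libraries are called by their labels throughout, so that every direction given here rests on those labels. Dhx9 stands at the fold limit, and its call is lost in 8 of the 20 alternative settings. Xist was at 99.19, 121.04 and 127.76 FPKM in WT 3, 4 and 5, at 0.07 and 0.04 FPKM in WT 1 and 2 and at no more than 0.09 FPKM across the libraries labelled cKO, and Ddx3y of the Y chromosome was at no more than 0.05 FPKM in WT 3, 4 and 5 and at 19.66 FPKM or more in the other libraries. WT 3, 4 and 5 thus carry the sex-linked transcripts of females and the other 7 libraries those of males. Library cKO 1 stood apart from the other libraries of its label in Trgc1 and Trgj1, and the log2 differences of these 2 genes are given with and without it.

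Trgc1, the constant gene of the first cluster (ENSMUSG00000076749), was at 12.59, 160.73, 125.36, 152.0 and 110.88 FPKM across the libraries labelled cKO 1 to 5 and at 0.78, 1.31, 2.31, 0.81 and 2.16 FPKM in WT 1 to 5. Every library labelled cKO was above every WT library, cKO 1 was far below the other 4 of its group, and WT 3 and 5 were the highest of theirs. The means were 112 ± 59.2 and 1.47 ± 0.728 FPKM (SD, n = 5 each), a ratio of 76.2 (93.1 without cKO 1), and the difference of the means of log2(FPKM + 0.1) was 5.88, or 6.56 without cKO 1. In bulk RNA, more cells that carry a transcript and more of the transcript per cell cannot be told apart. In fragments, Trgc1 had 161, 2553, 1859, 2097 and 1631 in the libraries labelled cKO and 12, 20, 33, 14 and 30 in WT. Its log2 difference ranked 6 from the top among the 18742 genes that averaged 0.1 FPKM or more. Of the 21945 genes above 0 in WT 1, 13431 had a higher FPKM than Trgc1, and in WT 3, where it ranked highest in WT, 10309 of 21129 did. The number was 4482 in cKO 1 and 234, 317, 257 and 393 in cKO 2 to 5, so in these 4 libraries Trgc1 was among the abundant transcripts.

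Trgc2, the constant gene on the minus strand, was at 1.03, 0.83, 2.52, 0.44 and 2.13 FPKM across the libraries labelled cKO 1 to 5 and at 0.26, 0.53, 0.42, 0.7 and 1.38 FPKM in WT 1 to 5. The groups overlapped, cKO 3 and 5 were the highest of all 10 libraries, and the libraries with the highest Trgc1, cKO 2 and 4, were in the range of WT. Its log2 difference was 0.91, with SDs of 0.94 and 0.76 in the groups labelled cKO and WT. Trgc4, the constant gene at the far end of the locus, was at 0.22, 0.12, 0.44, 0.07 and 0.64 FPKM across the libraries labelled cKO 1 to 5 and at 0.37, 0.37, 0.79, 0.81 and 1.55 FPKM in WT 1 to 5. Here the libraries labelled cKO were mostly the lower ones, with an overlap of the groups, cKO 3 and 5 were again the highest of their group, and WT 5 was the highest of all. The log2 difference of Trgc4 was -1.19, opposite in sign to those of Trgc1 and Trgc2. Over the 3 constant genes, the level in the libraries labelled cKO therefore ranged from far above to below that in WT.

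**Figure D1:**
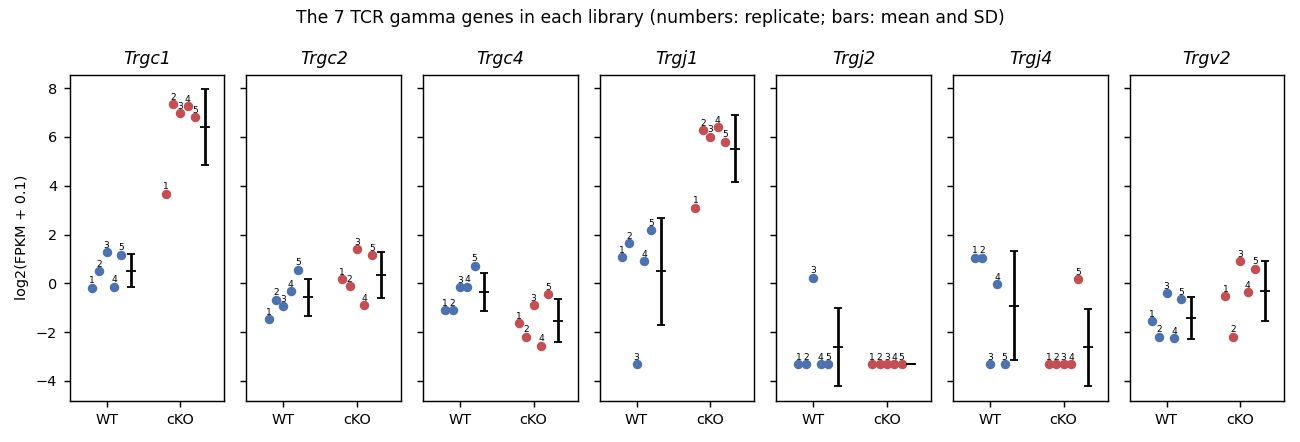
Level of each of the 7 selected TCR gamma genes as log2(FPKM + 0.1) in the 5 libraries labelled WT (blue) and the 5 labelled cKO (red), with replicate numbers beside the points and the mean and SD as bars. Trgc1 and Trgj1 are the genes whose groups do not overlap, with cKO 1 the lowest of its group in both, and points near -3.3 are values of 0.

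Of the 7 genes, 2 (Trgc1 and Trgj1) had all libraries labelled cKO above all WT libraries, and 5 had groups that overlapped. In the whole table, limma called 4.60% of the 18742 genes tested higher and 16.8% lower in the libraries labelled cKO, with a call meaning an adjusted p below 0.05 together with a difference of 2-fold or more, and since the 7 genes were selected on this contrast nothing is read from their count. The counts of the lists below stand beside these shares. Those calls were 862 genes higher and 3153 lower, 950 and 3236 without cKO 1, and 1581 and 2245 with quantile normalization, so the shares depend on the scaling. All 7 averaged 0.1 FPKM or more. For Trgj2 that mean rests on 1 fragment in 1 WT library.

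Trgj1, the joining segment next to Trgc1 whose sequence is given above, was at 8.43, 77.56, 64.38, 84.83 and 55.49 FPKM across the libraries labelled cKO 1 to 5 and at 2.0, 3.02, 0, 1.78 and 4.43 FPKM in WT 1 to 5. It had the pattern of Trgc1, with no overlap of the groups, the highest values in cKO 2 and 4 and the lowest of the libraries labelled cKO in cKO 1. These are 7, 80, 62, 76 and 53 fragments against 2, 3, 0, 2 and 4. The log2 difference was 5.02, 5.63 without cKO 1 and 4.07 without WT 3, the library with no fragment.

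Trgj2, the joining segment of the Trgc2 cluster, was at 1.08 FPKM in WT 3 and at 0 in the other 9 libraries, which is 1 fragment in the whole series. Trgj4, the joining segment of the Trgc4 cluster, was at 1.97, 1.98, 0, 0.88 and 0 FPKM in WT 1 to 5 and at 1.03 FPKM in cKO 5 and 0 in the other libraries labelled cKO, or 5 fragments against 1. Neither of them reached the level of Trgj1 in any library labelled cKO. The only other joining segment, Trgj3, 90.0% identical to Trgj1, had 1 fragment, in cKO 3. Fragments were thus 278 for Trgj1 and 2 for the other 3 J segments together in the libraries labelled cKO, against 11 and 6 in WT.

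Trgv2, a variable segment on the minus strand whose rearrangement joins it to Trgj2, was at 0.59, 0.12, 1.78, 0.68 and 1.41 FPKM across the libraries labelled cKO 1 to 5 and at 0.24, 0.12, 0.66, 0.11 and 0.54 FPKM in WT 1 to 5. The groups overlapped, cKO 3 and 5 were the highest and cKO 2 was as low as the lowest WT libraries. Its log2 difference was 1.09, with 35 fragments in the group labelled cKO and 13 in WT. As with Trgc2, the highest libraries were not those with the most Trgc1.

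Of the 8 genes of the locus that were not selected, 7 averaged 0.1 FPKM or more, and limma called 1 of them higher and 0 lower. Called higher was Trgv6, a variable segment of the first cluster, at 0.34, 1.23, 4.11, 0.63 and 4.15 FPKM across the libraries labelled cKO 1 to 5 and at 0, 0.14, 0.15, 0 and 0.31 FPKM in WT 1 to 5. The libraries cKO 3 and 5 were the highest. In fragments, cKO 1 and WT 5 were tied at 2 each, and the gap between them in FPKM comes from depth alone. The log2 fold change was 2.98 (95% confidence interval 1.47 to 4.5, adjusted p = 0.00480 by limma), and the gene was called in each of the 20 alternative settings, with a log2 fold change of 1.24 at a pseudocount of 1 and 4.51 at one of 0.01. Trgv6 and its neighbours Trgv7, Trgv4 and Trgv5 lie within the antisense lncRNA gene Gm31887, and since it is not stated whether the counting used strand, reads of the segments and of this gene cannot be told apart; Gm31887 itself was at no more than 0.46 FPKM in any library. Trgv7 was at 0, 1.11, 0.34, 0 and 0.34 FPKM in cKO 1 to 5 and at 0.18 FPKM in WT 3 and 0 in the other WT libraries (adjusted p = 0.155 by limma). Trgv4 had 13 fragments in the group labelled cKO and 17 in WT, Trgv5 had 2 and 4, and Trgv1 had 9 in each, and none of these 3 was called. Trgc3 had 8 fragments and 3, Trgj3 1 and 0, and Trgv3, which was not tested, 0 and 1.

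**Figure D2:**
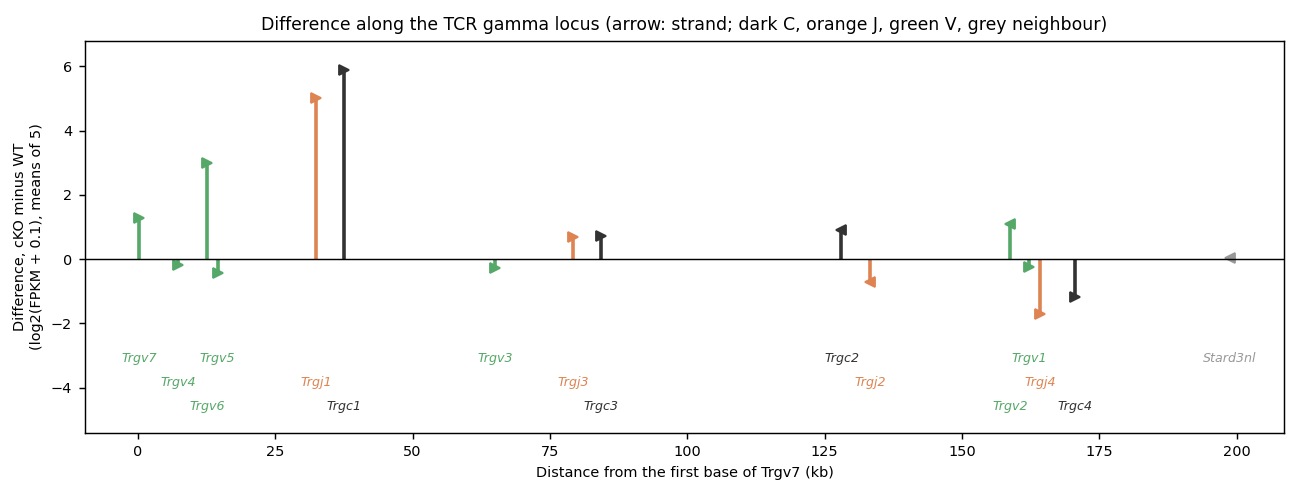
Difference between the means of log2(FPKM + 0.1) in the libraries labelled cKO and WT (vertical axis) for the 15 genes of the TCR gamma locus and the neighbour Stard3nl, by distance in kb from the start of Trgv7 (horizontal axis), with arrows for the strand and colours for V, J and C genes. The largest differences, 5.88 and 5.02, are those of Trgc1 and Trgj1, and Trgv6 of the same cluster is next at 2.98.

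The balance among the constant genes was examined per library in fragments, as Trgc1, Trgc2, Trgc3 and Trgc4 share exons that are close in sequence. Trgc1 held 91.0%, 99.4%, 97.6%, 99.5% and 97.4% of the constant gene fragments of the libraries labelled cKO 1 to 5 and 54.5%, 55.6%, 64.7%, 33.3% and 41.7% in WT 1 to 5. The exact (Clopper-Pearson) 95% confidence interval was 85.7% to 94.7% in cKO 1 and 50.1% to 77.6% in WT 3. Such intervals cover the counting error within a library only. Group means were 97.0% ± 3.48 and 50% ± 12.4 (SD, n = 5 each). The summed FPKM of the other 3 constant genes was 1.25, 1.04, 3.15, 0.820 and 2.96 in cKO 1 to 5 and 0.630, 1.09, 1.21, 1.59 and 2.93 in WT 1 to 5. These sums overlapped between the groups. Trgc1 was selected on its difference, so its share differs with it, and near-identical copies limit the assignment of fragments.

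**Figure D3:**
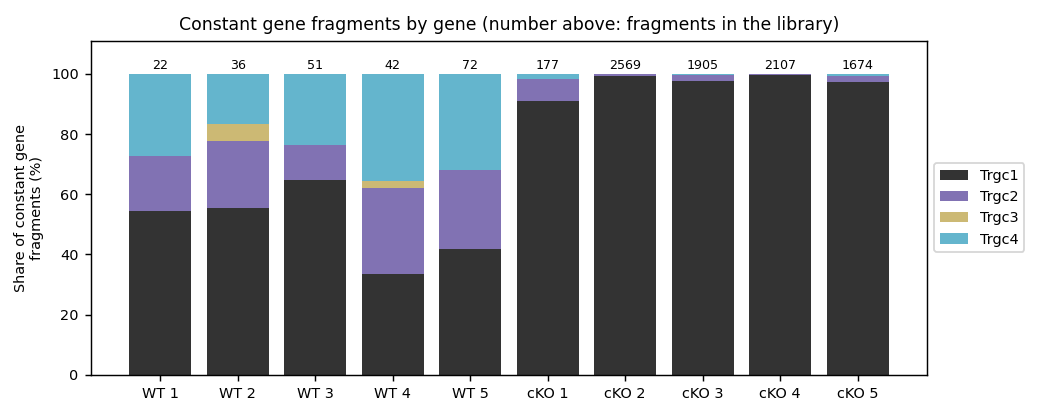
Share of the constant gene fragments of each library that fell on Trgc1, Trgc2, Trgc3 and Trgc4 (vertical axis, percent), with the number of constant gene fragments above each bar. Trgc1 takes 91.0% to 99.5% in the libraries labelled cKO and 33.3% to 64.7% in those labelled WT.

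Within the first cluster, the ratio of Trgj1 to Trgc1 in FPKM was 0.67, 0.48, 0.51, 0.56 and 0.50 in the libraries labelled cKO 1 to 5. In WT it was 2.56, 2.31, 0, 2.20 and 2.05 in libraries 1 to 5, each from at most 4 fragments of Trgj1. The ratios of cKO 2 to 5 were close to each other, in libraries whose Trgc1 levels were also near each other. Library cKO 1, with far less Trgc1, had the highest ratio of the libraries labelled cKO. That ratio rests on 7 fragments of Trgj1, against 53 to 80 in the other 4. The 4 variable segments of the cluster had together 3, 17, 36, 5 and 36 fragments in cKO 1 to 5, or 1.86, 0.666, 1.94, 0.238 and 2.21 per 100 fragments of Trgc1. In WT 1 to 5 they had 6, 1, 6, 8 and 5 fragments, or 50, 5.0, 18.2, 57.1 and 16.7 per 100 fragments of Trgc1. The denominator is the selected gene Trgc1, so these ratios fall where it rises, and that of WT 2 rests on 1 V fragment. Gene-level FPKM do not show which V segment, if any, was joined to Trgj1 in a transcript, and whether the transcripts were rearranged was not tested.

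The locus as a whole, summed over its 15 genes, was at 23.4, 242, 202, 239 and 178 FPKM across the libraries labelled cKO 1 to 5 and at 6.66, 8.31, 6.24, 6.52 and 11.4 FPKM in WT 1 to 5. Trgj1 and Trgc1 together held 88.0% to 99.1% of the fragments of the locus in the libraries labelled cKO and 28.6% to 52.4% in WT. In WT, the order of the mean levels in FPKM was Trgj1 (2.25 ± 1.63), Trgc1 (1.47 ± 0.728), Trgj4 (0.966 ± 0.989), Trgc4 (0.778 ± 0.482), Trgc2 (0.658 ± 0.434), Trgv4 (0.476 ± 0.297), Trgv2 (0.334 ± 0.252), Trgv1 (0.292 ± 0.221) and Trgj2 (0.216 ± 0.483) (SD, n = 5). No neighbours in this order differed by more than the larger of their SDs. Trgc4 was above Trgc2 in 4 of 5 WT libraries and Trgc1 above Trgj4 in 2 of 5. In the libraries labelled cKO, the order was Trgc1 (112 ± 59.2), Trgj1 (58.1 ± 30.0), Trgv6 (2.09 ± 1.89), Trgc2 (1.39 ± 0.890) and Trgv2 (0.916 ± 0.668), and Trgj1 was above Trgv6 in 5 of 5 libraries. Among neighbours in this order, these were the only means that differed by more than the larger SD.

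The genes around the locus did not share a common pattern. Of the 6 nearest protein-coding genes, 3 on each side, 4 were tested, and limma called 2 of them higher and 0 lower. Stard3nl, the nearest on the side of Trgc4 at 4.92 kb, was at 3.19, 4.52, 5.42, 5.19 and 5.26 FPKM across the libraries labelled cKO 1 to 5 and at 4.98, 4.1, 4.0, 4.51 and 5.31 FPKM in WT 1 to 5, with overlapping groups (log2 fold change 0.02, 95% confidence interval -0.32 to 0.37, adjusted p = 0.911 by limma). On the other side, Vps41, which encodes a subunit of a vesicle tethering complex, was at 11.5 ± 0.426 and 11.0 ± 0.447 FPKM in the groups labelled cKO and WT (SD, n = 5 each; adjusted p = 0.421 by limma). Farther away beyond Stard3nl, Sfrp4, which encodes a secreted Wnt antagonist, was at 4.17, 9.74, 14.3, 5.99 and 11.83 FPKM in cKO 1 to 5 and at 0.65 to 1.38 FPKM in WT (log2 fold change 3.03, adjusted p = 1.04e-04 by limma). Epdr1, next to it, was at 46.4 ± 8.36 and 22.2 ± 3.28 FPKM (log2 fold change 1.05, adjusted p = 2.66e-04 by limma), and fell to the fold limit without cKO 3, which ends its call. Both had their lowest value of the group labelled cKO in cKO 1.

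The other T-cell receptor loci have 255 segments in the table, of which 80 were above 0 in some library and 44 were tested. Limma called 5 of them higher and 13 lower, with a median log2 fold change of -0.64 beside -0.11 for all genes tested. Of the 23 TCR beta segments tested, 2 were called higher and 11 lower. Trbd1, the first diversity segment of the beta locus, was at 0 in cKO 1 to 4 and at 10.47 FPKM in cKO 5, and at 35.02, 5.03, 21.56, 13.36 and 27.7 FPKM in WT 1 to 5 (log2 fold change -6.07, adjusted p = 0.00237 by limma). The log2 fold change of Trbd1 was -7.42 without cKO 5, -3.49 at a pseudocount of 1 and -8.72 at one of 0.01. Trbj1-1, a joining segment downstream of it, was likewise at 0 in cKO 1 to 4 and at 3.93 FPKM in cKO 5, against 5.54 to 8.09 FPKM in WT (adjusted p = 0.00128 by limma), and Trbj1-3 was at 0.448 ± 0.614 against 7.12 ± 4.29 FPKM (SD, n = 5 each; adjusted p = 0.00115 by limma). Trbd1, Trbj1-1 and Trbj1-3 are short, like the gamma J segments, so these values rest on few fragments, which were not counted here. Trbd1 and Trbj1-1 were at 0 in the libraries with the most Trgj1 and Trgc1, and also in cKO 1, the library of this label with the least. Trbv13-2, a variable segment of the beta locus, was instead at 21.25, 86.23, 34.45, 118.39 and 30.67 FPKM in cKO 1 to 5 and at 6.71, 7.09, 6.85, 4.4 and 5.28 FPKM in WT 1 to 5 (log2 fold change 2.96, adjusted p = 3.25e-04 by limma). Its neighbour Trbv12-2 was at 6.38, 16.62, 7.61, 33.23 and 4.08 FPKM in cKO 1 to 5 and at 0.35 to 1.88 FPKM in WT (log2 fold change 3.05, adjusted p = 0.00151 by limma). The log2 fold change of Trbv12-2 was 2.38 with a covariate for Xist and 2.36 at a pseudocount of 1. Both V segments were highest in cKO 4 and 2, as Trgj1 was. Of the 5 TCR delta segments tested 1 was called higher, and of the 16 TCR alpha segments 2 were called higher and 2 lower. The delta segment was the variable segment Trdv4, named to complete the count. Its log2 fold change was 2.15 (adjusted p = 0.0131 by limma) at a mean over all libraries of 1.46 FPKM.

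Of 21 genes of the TCR-CD3 complex and its proximal signalling, 16 were tested, and limma called 0 higher and 7 lower, with a median log2 fold change of -0.61. Lck, the kinase that phosphorylates CD3 chains, was at 0.74, 0.24, 0.85, 0.25 and 0.66 FPKM across the libraries labelled cKO 1 to 5 and at 1.87 to 2.41 FPKM in WT (log2 fold change -1.88, adjusted p = 7.70e-04 by limma). Lcp2, which encodes the adaptor SLP-76, was at 4.24 ± 0.383 and 15.9 ± 1.95 FPKM (SD, n = 5 each; adjusted p = 7.32e-06 by limma), and the kinase gene Syk at 7.41 ± 1.87 and 23.5 ± 3.17 FPKM (adjusted p = 6.85e-05 by limma). Lcp2 and Syk are also transcribed in myeloid cells. Cd2 was called lower too (adjusted p = 0.00864 by limma), but not with a pseudocount of 1 or with a covariate for Xist, where its log2 fold change was -1.61 against -1.91. Fyn and Lat were not called, at 9.70 ± 1.92 against 12.6 ± 1.5 FPKM and 7.22 ± 3.41 against 7.75 ± 2.22 FPKM. Of the CD3 genes, named after their values were seen, Cd3e, Cd3g and Cd247 were not called, with log2 fold changes of 0.53, 0.29 and 0.24 (adjusted p = 0.338, 0.689 and 0.683 by limma). Cd3d was at 0.12, 0, 1.17, 0.26 and 1.14 FPKM in cKO 1 to 5 and at 0.73, 0.27, 0.46, 0.71 and 0.66 FPKM in WT 1 to 5 (log2 fold change -0.62, adjusted p = 0.484 by limma). It was highest in cKO 3 and 5 and at 0 in cKO 2, the library with the most Trgc1.

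The summed level of 9 T cell markers (Cd3e, Cd3d, Cd3g, Cd247, Cd5, Trac, Trbc1, Trbc2 and Trdc) was 2.18, 2.90, 10.2, 1.33 and 8.99 FPKM across the libraries labelled cKO 1 to 5 and 6.07, 4.81, 7.64, 6.84 and 9.18 FPKM in WT 1 to 5. The groups overlapped, and the sum was lowest in cKO 4, 1 and 2, among them the libraries with the most Trgc1. Of the 8 markers tested, 0 were called higher and 1, Trbc1, the most abundant, was called lower, and no marker was at 0 in all libraries. Trdc, the constant gene of the delta chain and named after its values were seen, was at 0.37, 0.77, 2.69, 0.42 and 1.79 FPKM in cKO 1 to 5 and at 0.33, 0.11, 0.57, 0.4 and 0.4 FPKM in WT 1 to 5 (adjusted p = 0.0773 by limma). Like Trgc2, Trgv2 and Trgv6 it was highest in cKO 3 and 5, and in cKO 4, where Trgc1 was at 152.0 FPKM, it was within the range of WT. The part of T cells in the level of Trgc1 was not tested beyond these values.

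Of 17 genes of gamma-delta T cells in the table, 14 were tested, and limma called 1 higher and 4 lower, with a median log2 fold change of -0.34. The 4 called lower are also transcribed in progenitor cells or myeloid cells. Cd27, a TNF receptor family member, was at 0.666 ± 0.474 and 12.2 ± 2.16 FPKM in the groups labelled cKO and WT (log2 fold change -4.26, adjusted p = 6.99e-05 by limma), and Sox4, a transcription factor gene, at 2.13 ± 1.69 and 19.2 ± 2.57 FPKM (log2 fold change -3.50, adjusted p = 3.09e-04 by limma; SD, n = 5 each). Tmem176b and Tmem176a were called lower as well, with log2 fold changes of -2.58 and -2.32. The gene called higher was Il23r, the interleukin-23 receptor, named after its values were seen, with a log2 fold change of 1.36 (adjusted p = 0.0128 by limma) at a mean over all libraries of only 0.149 FPKM.

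Of 14 genes of conventional T cells, 10 were tested and limma called 0 higher and 3 lower, namely Cd4, Tcf7 and Cd1d1. Of these, Cd1d1 is not particular to T cells. Tcf7, which encodes the T-lineage factor TCF-1, was at 0.6, 0.23, 0.66, 0.09 and 0.5 FPKM across the libraries labelled cKO 1 to 5 and at 1.41 to 2.0 FPKM in WT (log2 fold change -1.90, adjusted p = 0.00180 by limma). Cd4 was at 0.140 ± 0.103 and 0.698 ± 0.197 FPKM and Cd1d1 at 2.96 ± 0.852 and 9.40 ± 2.49 FPKM (SD, n = 5 each), and Icos was not called (adjusted p = 0.925 by limma). The calls of Tcf7 and Cd4 are lost with a pseudocount of 1. Of 24 genes of NK and innate lymphoid cells, which also transcribe unrearranged Trg genes, 22 were tested and limma called 0 higher and 15 lower, with a median log2 fold change of -1.67. Nkg7, a granule protein gene, was at 23.0, 7.38, 13.91, 6.3 and 24.95 FPKM in cKO 1 to 5 and at 72.96 to 95.95 FPKM in WT (adjusted p = 2.40e-04 by limma). Ncr1, which encodes the NK receptor NKp46, was at 0.05, 0, 0.28, 0 and 0.08 FPKM in cKO 1 to 5 and at 0.78 to 1.81 FPKM in WT (adjusted p = 1.86e-04 by limma). Klrd1 and Cd7 were lower too (log2 fold changes -3.25 and -5.0), and Il1rl1, the interleukin-33 receptor, was not called, at 21.1 ± 3.66 and 18.4 ± 3.82 FPKM. The part of these cells in the level of Trgc1 was not tested.

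Of 16 genes of V(D)J recombination and end joining, all tested, limma called 0 higher and 3 lower, and these were Rag1, Rag2 and Dntt. That is 18.8% of the list, beside 16.8% lower of all genes tested. Rag1 was at 0, 0, 0.32, 0 and 0.56 FPKM across the libraries labelled cKO 1 to 5 and at 0.59, 1.06, 0.92, 0.66 and 0.39 FPKM in WT 1 to 5 (log2 fold change -2.02, adjusted p = 0.0151 by limma). Rag2 was at 0, 0, 0.05, 0 and 0.33 FPKM in cKO 1 to 5 and at 0.54 to 0.91 FPKM in WT (log2 fold change -2.51, adjusted p = 6.89e-04 by limma). Both recombinase genes were thus listed at 0 in cKO 1, 2 and 4, and the calls of both are lost with a pseudocount of 1, that of Rag1 also with a covariate for Xist, where its log2 fold change was -2.20 against -2.02. Dntt, the polymerase that adds bases at V(D)J junctions, was at 0, 0, 0.41, 0 and 1.56 FPKM in cKO 1 to 5 and at 16.42 to 20.92 FPKM in WT (log2 fold change -6.28, adjusted p = 1.18e-04 by limma). The log2 fold change of Dntt was -6.97 without cKO 5, -3.93 at a pseudocount of 1 and -8.33 at one of 0.01. The end-joining genes Xrcc5 and Xrcc6 and the DNA-bending proteins of the Hmgb genes were not called, with Xrcc5 at 26.6 ± 1.53 and 16.2 ± 3.49 FPKM under the fold limit of 2. Of 14 early lymphoid progenitor genes tested, limma called 0 higher and 11 lower, with a median log2 fold change of -1.95. Of the 11, 4 (Rag1, Rag2, Dntt and Il7r) are also counted in the lists of V(D)J recombination or of the interleukin-7 receptor. Flt3, the receptor of early lymphoid progenitors, was at 1.39, 0.37, 1.79, 0.38 and 5.86 FPKM in cKO 1 to 5 and at 14.68 to 25.29 FPKM in WT (adjusted p = 4.55e-04 by limma), and Cd34 had a log2 fold change of -3.32. Kit was not called, at 25.5 ± 5.57 and 45.9 ± 7.83 FPKM.

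Of 14 genes of the interleukin-7 receptor and STAT5, all tested, limma called 4 higher and 4 lower, with a median log2 fold change of 0.09. Il7r was at 1.05, 1.0, 1.98, 0.47 and 2.36 FPKM across the libraries labelled cKO 1 to 5 and at 5.9, 3.0, 4.41, 4.16 and 6.56 FPKM in WT 1 to 5 (log2 fold change -1.87, adjusted p = 0.00227 by limma). It was lower in every library labelled cKO than in every WT library, and lowest in cKO 4, one of the libraries with the most Trgc1. Also called lower were Crlf2, Jak3 and the survival gene Bcl2, named to complete the count (log2 fold changes -1.18, -1.73 and -1.06). The transcription factor genes Stat5a and Stat5b were not called, with Stat5b at 30.0 ± 4.78 and 33.9 ± 1.77 FPKM (adjusted p = 0.136 by limma), nor were Jak1 and Mcl1, which were under the fold limit. Il2rg, the shared receptor chain, and the inhibitor gene Socs3, both named after their values were seen, were not called either, with log2 fold changes of 0.15 and 0.61 (adjusted p = 0.499 and 0.0268 by limma).

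The 4 genes called higher were Cish, Socs1, Socs2 and Pim1, which are known to be induced by STAT5 downstream of many cytokine receptors, the erythropoietin receptor among them. Of the same list, Bcl2 was called lower and Mcl1 and Socs3 were not called, with log2 fold changes of -1.06, -0.29 and 0.61. STAT5 activity was not tested. Cish, an inhibitor of cytokine signalling, was at 3.86, 18.48, 11.46, 12.42 and 7.7 FPKM across the libraries labelled cKO 1 to 5 and at 0.71, 0.91, 0.69, 0.46 and 0.5 FPKM in WT 1 to 5 (log2 fold change 3.71, 95% confidence interval 2.90 to 4.51, adjusted p = 6.85e-05 by limma). Like Trgc1 it was lowest in cKO 1 and highest in cKO 2 among the libraries labelled cKO, and the order of these 5 libraries, from the highest cKO 2 through cKO 4, 3 and 5 to cKO 1, was the same for both genes. The share of all genes with this order was not counted, so nothing is read from the shared order. Socs2, of the same inhibitor family, was at 0.58, 1.23, 1.13, 1.24 and 1.18 FPKM in cKO 1 to 5 and at 0.10 to 0.37 FPKM in WT (log2 fold change 1.94, adjusted p = 6.10e-04 by limma), with its call lost at a pseudocount of 1. Pim1, a kinase gene, was at 56.57, 70.16, 62.75, 89.43 and 45.4 FPKM in cKO 1 to 5 and at 17.62 to 22.58 FPKM in WT (log2 fold change 1.63, adjusted p = 6.93e-05 by limma). Socs1, named to complete the count, had a log2 fold change of 1.36 (adjusted p = 0.0371 by limma). Socs2 and Pim1 did not have the order of Trgc1, as both were highest in cKO 4 and Pim1 was lowest in cKO 5. Whether the 4 genes and Trgc1 were transcribed in the same cells was not tested.

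**Figure D4:**
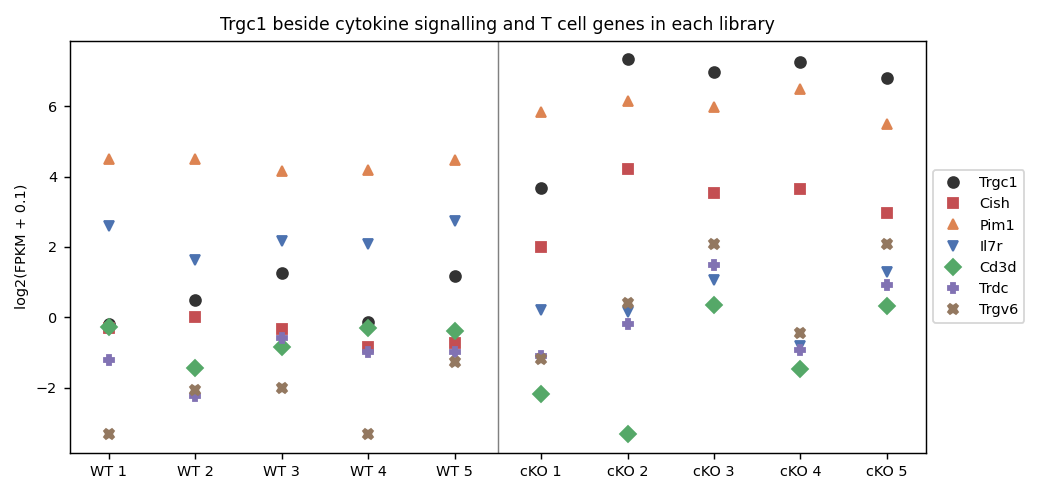
Levels of Trgc1, Cish, Pim1, Il7r, Cd3d, Trdc and Trgv6 as log2(FPKM + 0.1) in each of the 10 libraries, those labelled WT on the left and those labelled cKO on the right of the line. Trgc1, Cish and Pim1 are above their WT levels in all libraries labelled cKO and Il7r is below, while Cd3d, Trdc and Trgv6 are highest in cKO 3 and 5.

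Of 22 genes of transcription factors that act at lymphoid receptor loci, 21 were tested and limma called 0 higher and 8 lower, with a median log2 fold change of -0.89. Cbfb, the partner of the RUNX factors, was at 13.56, 17.07, 26.28, 15.13 and 24.51 FPKM across the libraries labelled cKO 1 to 5 and at 41.04 to 58.56 FPKM in WT (log2 fold change -1.51, adjusted p = 1.63e-04 by limma), and Runx2 had a log2 fold change of -2.84. Notch1, the receptor that starts T-lineage development, was at 0.75, 0.23, 0.81, 0.06 and 1.31 FPKM in cKO 1 to 5 and at 3.85 to 6.91 FPKM in WT (log2 fold change -3.28, adjusted p = 5.53e-04 by limma), and the chromatin organizer gene Satb1 had a log2 fold change of -3.07. Notch1 was lowest in cKO 4 and 2, the libraries with the most Trgc1. Ikzf1, which encodes Ikaros, Tcf3, which encodes the E proteins E12 and E47, and Myb were not called and were at 80.0 ± 7.87, 67.1 ± 4.06 and 38.7 ± 7.33 FPKM in the group labelled cKO and 92.0 ± 3.92, 47.1 ± 6.70 and 70.6 ± 8.08 FPKM in WT (SD, n = 5 each).

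**Figure D5:**
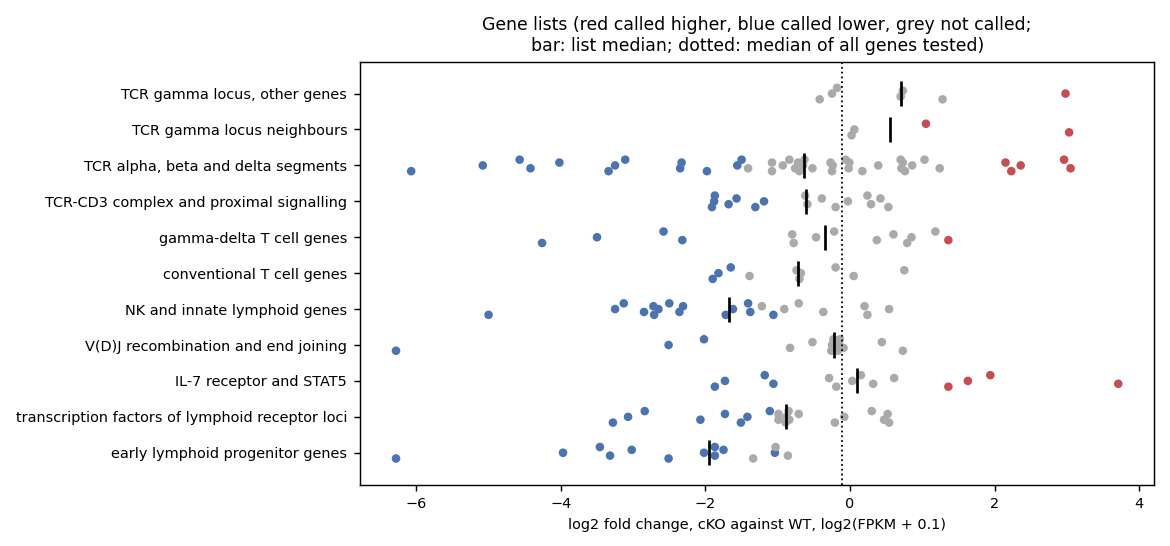
Log2 fold change of each tested gene of the lists (horizontal axis, libraries labelled cKO against WT), in red where limma called it higher, in blue where it called it lower and in grey where it was not called, with the median of each list as a bar and that of all genes tested as a dotted line at -0.11. The lists with genes called higher are the other TCR gamma genes (1), the locus neighbours (2), the other T-cell receptor segments (5), the gamma-delta T cell genes (1) and the interleukin-7 receptor and STAT5 genes (4).

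Markers of other cell types moved between the groups as well. Lineage depletion is directed at mature T, B, erythroid and myeloid cells, and the antibodies of the kit used are not listed in the sources used here. The sum of 5 erythroid markers, led by Hbb-bs, was 2427, 2523, 2461, 2184 and 1563 FPKM across the libraries labelled cKO 1 to 5 and 611, 492, 1129.9, 481 and 367 FPKM in WT 1 to 5, with 3 of 5 called higher by limma. The erythroid sum was as high in cKO 1, where Trgc1 was at 12.59 FPKM, as in cKO 2, where it was at 160.73 FPKM. The sum of 5 neutrophil markers, led by Mpo, was 1251, 97.7, 447, 84.9 and 692 FPKM in cKO 1 to 5 and 1805 to 2465 FPKM in WT, with 2 of 5 called lower. It was highest of its group in cKO 1, the library with the least Trgc1, and lowest in cKO 4 and 2, the libraries with the most. Of 5 monocyte and macrophage markers, led by Lyz2, 5 were called lower, with sums of 92.7 ± 97.6 and 1169 ± 316 FPKM, and of 5 NK markers, led by Nkg7, 5 were called lower, with sums of 16.6 ± 9.07 and 90.9 ± 9.47 FPKM (SD, n = 5 each). Of 6 B cell markers, led by Ighm, 2 were called lower, of 5 dendritic cell markers, led by Bst2, 3, of 4 megakaryocyte markers, led by Pf4, 4, of 4 mast cell and basophil markers, led by Mcpt8, 3, of 7 stem and progenitor markers, led by Kit, 5, and of 5 endothelial and stromal markers, led by Pecam1, 4. No marker of these lists was at 0 in all libraries, and the part of cell makeup in the level of the Trg genes was not tested.

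The genes outside the locus whose profile over the 10 libraries was most like the mean profile of Trgc1, Trgc2 and Trgc4 were Usp44, Ccdc116, Gm7862, Slc25a33 and Lrp12, out of 12349 genes that averaged 1 FPKM or more. Likeness was the root mean square difference between profiles of log2(FPKM + 0.1), each centred on its own mean, and it was 0.496, 0.509, 0.531, 0.532 and 0.543, beside a root mean square of 1.13 for the mean profile itself. Slc25a33, which encodes a mitochondrial pyrimidine carrier, was at 6.16, 14.55, 17.96, 10.86 and 12.72 FPKM across the libraries labelled cKO 1 to 5 and at 1.69 to 3.91 FPKM in WT. Usp44, a deubiquitinase gene, was at 1.06, 2.71, 1.96, 1.74 and 2.15 FPKM in cKO 1 to 5 and at 0.30 to 0.49 FPKM in WT. Both were lowest in cKO 1 within the group labelled cKO, as Trgc1 was. They were chosen for likeness to a profile that includes Trgc1, so nothing is read from this. Since the 3 constant genes differed in direction, the likeness to Trgc1 alone was also taken, a choice made after the values were seen. The nearest genes were then Cth, Trib3, Gm43340, 4930594O21Rik and Slc7a3, with root mean square differences of 0.572, 0.651, 0.756, 0.785 and 0.944 beside a root mean square of 3.13 for Trgc1 itself. Cth, an enzyme of cysteine synthesis, was at 1.14, 24.01, 23.62, 12.91 and 23.07 FPKM in cKO 1 to 5 and at 0.06 to 0.21 FPKM in WT, and Trib3, a pseudokinase gene, at 3.6, 44.81, 52.48, 44.47 and 39.11 FPKM in cKO 1 to 5 and at 0.09 to 0.33 FPKM in WT. In both, as in Trgc1, cKO 1 was the lowest library of its label and still above every WT library. Cth and Trib3 were chosen for their likeness to Trgc1, so nothing is read from this shared pattern.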

How the data were processed

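Reads had been cleaned of adapters and low-quality bases and aligned to GRCm39 with HISAT2. The authors' deposited table gives FPKM with 2 decimals for each gene in each library. The submitters' processing notes name cutadapt 1.9.1, HISAT2 2.0.1 and HTSeq 0.6.1. The annotation, the gene lengths and the use of strand are not given in the sources used here. All 10 columns were mapped to a genotype and replicate by name. The labels number the replicates without naming animals, so p-values measure the spread between these libraries. Gene positions, lengths and sequences came from GENCODE M39 on GRCm39.

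Depth was found as the number of fragments at which low values (up to 20 fragments) of genes with a single transcript came out whole within 0.2. Between 96.0% and 96.4% of these values did, where 40% would by chance. With its annotated length Trgv6 did not give whole fragments, and the length that did, 424 bases, was used for it.

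FPKM are not counts, so limma 3.58.1 (lmFit, eBayes with a trend) in R 4.3.3 was run on log2(FPKM + 0.1), as a two-sided test. It covered the 18742 genes that averaged 0.1 FPKM or more, and p-values were adjusted over them by Benjamini-Hochberg. A call needed an adjusted p below 0.05 and a difference of 2-fold or more. Since 0.1 is added before taking logs, fold changes of low genes that are above 0 in every library come out too small. Where a short segment is at 0 in some libraries, 0.1 can lie far below the value of 1 fragment. Its fold change can then come out larger than that of the means. The log2 fold change of Trbd1, for example, was -3.49 at a pseudocount of 1 and -8.72 at one of 0.01. The steps were tested on simulated data. Permutation tests used scipy 1.17.1 and alignments biopython 1.88.

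The members and the lists were chosen with earlier results of these data known. The 11 lists were the other TCR gamma genes, the locus neighbours, the segments of the other T-cell receptor loci, and 8 lists from general knowledge. Genes named were the Trg genes, Dhx9, up to 4 genes of a list by mean FPKM, up to 3 by change among those called, every gene of a list of 5 or fewer, the 5 genes nearest in profile, Xist and Ddx3y. Others are said to be named later. Some genes of the lists are not reported here by name. Alternatives tried were pseudocounts of 0.01 and 1, filters at a mean of 1 FPKM and at none, median-ratio scaling, quantile normalization, eBayes without a trend, a block for the replicate number, a covariate for Xist above 1 FPKM, adjusted p alone and each library left out. Likeness to Trgc1 alone was added after the values were seen.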

Additional observations from a re-analysis of the deposited data

Results flagged for a closer look

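A library of a group was singled out where its distance to the nearest other library of the group was large beside the range of the group (Dixon's criterion on log2(FPKM + 0.1)). Of 150 groups of 5 libraries compared, 19 had such a library, where chance flags about 1 in 20 groups of normal values. In 6 of the 19 the other 4 values were 0, where any value above 0 meets the criterion and that rate does not hold, and the groups share libraries, so the count is not compared with the rate. Library cKO 1 accounted for 7 of the 19, WT 3 for 5 and cKO 5 for 4.

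Library cKO 1 was below the others of its label in Trgc1, at 12.59 FPKM beside 110.88 to 160.73, in Trgj1, at 8.43 beside 55.49 to 84.83, in Epdr1, at 31.82 beside 48.75 to 53.16, and in Socs2, at 0.58 beside 1.13 to 1.24. Without it, the log2 fold changes were 1.18 for Epdr1 and 2.13 for Socs2, against 1.05 and 1.94, and both stayed called. It was above them in Hmgb2, at 294.46 FPKM beside 188.56 to 204.18, in Mcl1, at 65.28 beside 58.58 to 60.03, and in Stat5b, at 38.3 beside 26.59 to 29.12. Library cKO 5 had the short segments Trbd1 at 10.47 FPKM and Trbj1-1 at 3.93, from few fragments and each at 0 in the other 4. It also had Rag2 at 0.33 beside at most 0.05, and Trgj4 at 1.03, a single fragment. In library cKO 3, Trgj3 at 1.04 FPKM was likewise a single fragment.

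Library WT 3 had Trgj1 at 0 FPKM beside 1.78 to 4.43, and 1 fragment each of Trgj2 (1.08 FPKM) and Trgv7 (0.18 FPKM), which were at 0 in the other WT libraries. It was also low in Tmem176b, at 14.08 FPKM beside 20.02 to 22.91, and in Cbfb, at 41.04 beside 54.95 to 58.56. Trgv4 was at 0 FPKM in WT 2 beside 0.46 to 0.75, and Lrp12 was at 1.31 FPKM in WT 1 beside 1.83 to 1.92. What sets these libraries apart was not tested.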

How the results depend on the processing

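The log2 differences of the 7 selected genes kept their sign under both pseudocounts and both scalings. That of Trgc1 lay between 5.17 (pseudocount of 1) and 6.10 (quantile normalization) in these settings and between 5.65 and 6.56 with single libraries left out, and that of Trgj1 between 4.06 and 5.72 and between 4.07 and 5.63. The smaller differences moved more beside their size. In these settings that of Trgc2, 0.91, lay between 0.48 and 1.42, that of Trgv2, 1.09, between 0.47 and 1.59, that of Trgc4, -1.19, between -1.54 and -0.43, that of Trgj4, -1.71, between -3.01 and -0.61, and that of Trgj2, -0.71, between -1.35 and -0.21, the smallest in size each with a pseudocount of 1. Trgj2 rests on 1 fragment of WT 3 and had no difference without that library. The unselected Trgv4 and Trgv1, which were not called, were near 0 and changed sign in several settings. Trgv4, at -0.18, went to 0.26 with quantile normalization, 0.21 with a pseudocount of 0.01 and 0.54 with the covariate for Xist, and to 0.02 to 0.04 without WT 1, WT 4 or cKO 2. Trgv1, at -0.25, went to 0.10 with quantile normalization and 0.11 without cKO 1 or cKO 4. Against 862 genes called higher and 3153 lower, of which 13 and 64 were genes of the lists, a pseudocount of 1 gave 356 and 1486 (8 and 39 of the lists), a mean of at least 1 FPKM 462 and 1827 (8 higher of the lists), with fewer genes tested, and adjusted p alone 3138 and 5300 (22 higher of the lists). Quantile normalization gave 1581 higher (22 of the lists) and 2245 lower, which moved the share of calls that were higher from 21.5% to 41.3% and the median over all tested genes from -0.11 to 0.10; the cause was not tested. With single libraries left out, 764 to 950 genes were called higher and 2880 to 3248 lower, of the lists 11 to 16 and 59 to 67. Of 45 named genes called, 33 were called in every setting that tested them and 12 were lost in some, most often with a pseudocount of 1, which shrinks differences of low genes. Xist and Ddx3y changed sign with the covariate for Xist, to 0.02 and -0.02, as the covariate takes up their difference by construction.

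With the replicate number as a block, 857 genes were called higher and 3107 lower, and of the lists 13 and 64. Deviations of libraries with the same number correlated at 0.117, 0.0258, -0.0103, -0.00304 and 0.0929 for numbers 1 to 5, all of them weak. WT 1, 2 and 5 correlated best with the library labelled cKO of their own number, and WT 3 and 4 with cKO 4 and cKO 2. A pairing by number is not shown by these values. Among the genes of the TCR gamma locus, depth limits the J segments most, as 1 fragment of Trgj1 is worth 0.891 to 1.20 FPKM. The WT libraries held 0 to 4 fragments of Trgj1.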
